A study of Mus musculus with 46 samples.

Results

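The subventricular zone (SVZ) of mice at 5 day recovery was compared with the SVZ of control mice, with 5 libraries in each group. These 10 libraries are all those whose titles name the 2 groups, out of 15 SVZ libraries and 46 libraries in the whole series. All mice were adults of strain C57BL/6. Control mice ate vehicle chow, and recovery mice ate chow with a high dose of PLX3397, an inhibitor of the CSF1 receptor, for 14 days and then vehicle chow for 5 days. A group killed at the end of the 14 days (14 day PLX3397, n = 5) shared the fit and is quoted to place single genes and to define a set of depleted genes. The SVZ was microdissected, and RNA was sequenced from the whole tissue. The question of the comparison is which transcripts, of myeloid cells and of all other cells, still differed from control when repopulation had begun.

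Microglia, the resident macrophages of the brain, need signaling through the CSF1 receptor to survive, so its inhibition removes them, and cells that remain or arrive refill the tissue once the drug is withdrawn. The SVZ lines the lateral ventricle and houses neural stem cells, the neuroblasts they produce, ciliated ependymal cells, astrocytes, and oligodendrocyte precursors that mature into myelinating oligodendrocytes. CSF1R inhibitors of this class can also act on related receptor kinases, among them KIT, FLT3 and, more weakly, PDGFRA, the receptor that marks oligodendrocyte precursors. In bulk tissue, fewer cells of a type and less RNA per cell cannot be told apart.

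Expression is given as FPKM, in which reads are scaled to gene length and to the total reads of each library. Control libraries held 4.57 to 9.51 M reads (median 5.79 M) and recovery libraries 5.38 to 9.66 M (median 8.23 M), as recovered from the steps of low values, and 1 read counted for 0.0517 to 0.109 FPKM on a 2 kb gene. There were 3 libraries that stood apart. Control replicate 1 carried choroid plexus RNA, with a summed FPKM over the 11 listed choroid plexus genes of 24570 against 125 to 247 in the other control libraries and 98.0 to 192 in the recovery libraries. Recovery replicates 4 and 5 lay at 41.0 and 31.9 on the first principal component (33.1% of the variance), where the other 8 libraries lay between -19.1 and 4.06. For example, Fgfr3, a growth factor receptor of astrocytes, measured 2.44 and 3.08 FPKM in recovery replicates 4 and 5 and 11.2 to 15.3 in the other recovery libraries.

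Of 14151 genes tested, 180 (1.27%) differed between 5 day recovery and control at an adjusted p under 0.05 in limma, and these are called DEGs. Of these, 154 (1.09% of tested genes) were lower and 26 (0.184%) higher, and the median log2 fold change over all tested genes was -0.01. Most lower genes belonged to microglia. When the FPKM of control microglia sorted from the brain was divided by that of control SVZ tissue, 1057 tested genes had a ratio of at least 4 and are called microglia-enriched, and 145 of the 154 lower DEGs were among them. Of the 26 higher DEGs, 2 were microglia-enriched, Alyref2 and Anxa1. Without recovery replicates 4 and 5, 123 of the 154 lower and 8 of the 26 higher DEGs remained. Without recovery replicate 3, the count of DEGs was 330, 231 of them lower and 99 higher.

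**Figure D1:**
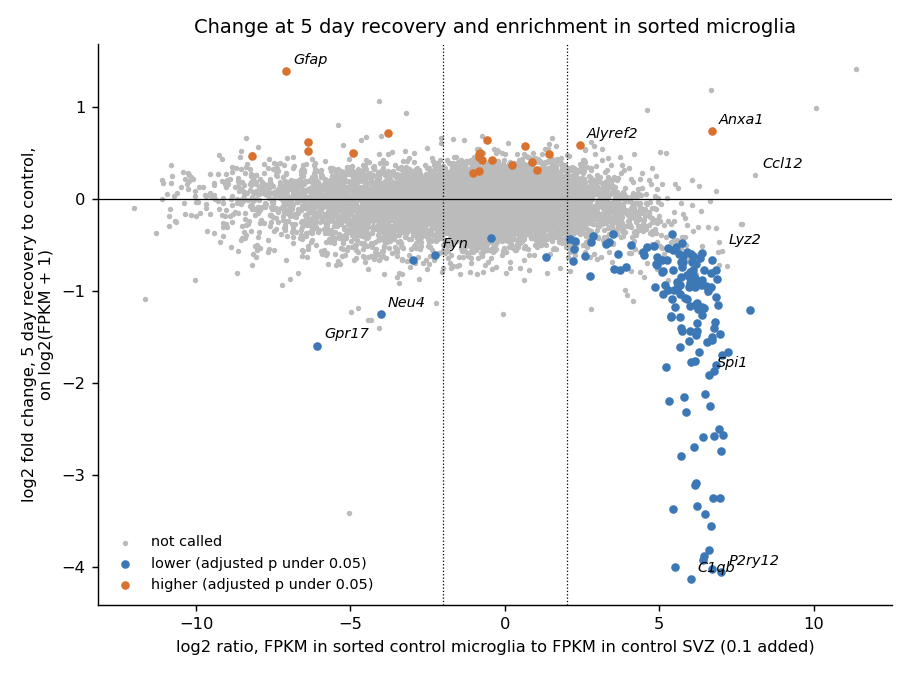
Each point is a gene tested in SVZ tissue and listed in the sorted-cell table. The horizontal axis gives the log2 ratio of mean FPKM in sorted control microglia (n = 3) to mean FPKM in control SVZ (n = 5), with 0.1 added to each, and the vertical axis the log2 fold change of 5 day recovery to control, with blue for lower and orange for higher DEGs. Dotted lines mark ratios of 0.25 and 4. The lower DEGs crowd at the right, where 145 of them have a ratio of at least 4, while Gpr17, Neu4 and Fyn lie at the left among genes that sorted microglia lack.

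The homeostatic microglia list, genes typical of resting microglia, had 17 of its 22 tested genes lower and none higher, with a median log2 fold change of -2.41. P2ry12, a purinergic receptor that guides microglial processes, measured 18.1, 25.5, 27.5, 21.2 and 24.5 FPKM in control and 0.238, 0.519, 0.589, 0.663 and 0.271 at 5 day recovery. Every recovery value lay below every control value, as in 1.97% of all tested genes, the recovery mean was 1.95% of control, and the log2 fold change was -4.06 ± 0.13 (SE, adjusted p = 5.02e-12). At 14 days the 5 mice had 0.282 to 0.706 FPKM, and the difference of recovery from 14 days was 0.01 ± 0.13 (SE) on the log2 scale (adjusted p = 0.966). The recovery and 14 day values of P2ry12 overlapped, as did those of Siglech, Trem2, P2ry13, Gpr34 and Tmem119. Despite the overlap, Tmem119 was called higher at recovery than at 14 days (1.03, adjusted p = 0.0269).

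Csf1r, the receptor that PLX3397 blocks, measured 30.4, 39.9, 41.8, 38.2 and 43.8 FPKM in control and 1.77, 2.26, 1.27, 1.47 and 0.818 at 5 day recovery, which is 3.91% of control (log2 fold change -4.00 ± 0.14, adjusted p = 9.57e-12). Every recovery value lay above every 14 day value, the highest of which was 0.281, and recovery exceeded 14 days by 1.09 ± 0.14 (adjusted p = 0.000841), in a test that called 0.29% of tested genes higher and 0.0353% lower at recovery. Trem2, a lipid-sensing receptor of microglia, measured 15.5, 23.9, 24.5, 24.4 and 26.4 FPKM in control and 0.512, 1.45, 0.211, 0.855 and 0.582 at recovery (log2 fold change -3.82 ± 0.18, adjusted p = 2.85e-10). Cx3cr1, the fractalkine receptor, measured 20.7, 25.4, 24.1, 21.7 and 24.2 FPKM in control and 1.25, 1.43, 0.646, 1.69 and 0.51 at recovery (-3.56 ± 0.14, adjusted p = 3.03e-11). None of these receptors overlapped between recovery and control. Siglech was at 2.91%, Gpr34 at 4.33%, Fcrls at 4.70% and Tmem119 at 7.19% of control, all of them DEGs.

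Of the 5 homeostatic genes that missed the threshold, the transcription factor Sall1 measured 2.91, 2.87, 3.58, 3.02 and 3.24 FPKM in control and 1.91, 2.52, 2.34, 2.24 and 2.15 at recovery (-0.35 ± 0.10, adjusted p = 0.117). The groups did not overlap, and the 14 day mean was 2.41 FPKM, 77.0% of control.

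The complement subunits C1qa, C1qb and C1qc, which together start the classical complement cascade and are made in the brain mainly by microglia, lie side by side on chromosome 4 (C1qb at 136880126-136886200, C1qc at 136889801-136892936 and C1qa at 136895916-136898844, GRCm38). C1qa measured 62.8, 78.6, 81.1, 85.6 and 95.1 FPKM in control and 4.64, 5.05, 3.08, 5.64 and 3.63 at 5 day recovery (5.46% of control, log2 fold change -3.93 ± 0.14, adjusted p = 9.57e-12). At 14 days no library exceeded 0.308 FPKM, so the recovery values stood clear of the depleted tissue (2.26 ± 0.14, adjusted p = 2.49e-07). C1qb was at 3.82% and C1qc at 5.65% of control. Of the 14 complement genes tested, 4 were lower, the 3 C1q genes and the C5a receptor gene C5ar1, and none was higher. Without recovery replicates 4 and 5, C4b was higher (0.82, adjusted p = 0.024).

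In the general myeloid list, 20 of the 27 tested genes were lower and none higher (median log2 fold change -1.21), and 17 were lower without recovery replicates 4 and 5. Tyrobp, the adaptor of TREM2, measured 45.5, 73.0, 78.9, 67.3 and 49.1 FPKM in control and 4.90, 5.97, 5.04, 3.27 and 6.46 at recovery (8.17% of control). Fcer1g, the shared chain of Fc receptors, was at 9.70% (4.21 ± 1.04 against 43.4 ± 3.20 FPKM, SD). Ctss, a cathepsin of antigen-presenting cells from the lysosome list, was at 5.05% (3.73 ± 1.47 against 73.9 ± 10.7 FPKM). Laptm5 was at 7.17% and Aif1, which encodes IBA1, at 10.4%.

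Spi1 encodes PU.1, the transcription factor that myeloid cells need to form and that binds a purine-rich motif. It measured 5.02, 6.72, 6.26, 5.69 and 6.07 FPKM in control and 0.836, 0.911, 1.21, 0.853 and 0.475 at 5 day recovery (14.4% of control, -1.91 ± 0.11, adjusted p = 3.57e-09), and recovery exceeded 14 days by 0.78 ± 0.11 (adjusted p = 0.00238). Other factors of the lineage, named here after their values were seen, were lower too: Irf8 at 22.6%, Irf5 at 29.2%, Lyl1 at 33.5% and Hhex at 40.5% of control. Hhex (adjusted p = 0.0166) had an adjusted p of 0.108 without recovery replicates 4 and 5, 0.0508 without control replicate 1 and 0.0601 without control replicate 3.

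The core PU.1 motif GAGGAAGT, searched on both strands from 250 bases before to 50 bases after each RefSeq start (GRCm38.p6), was found for 15 of the 111 lower, microglia-enriched DEGs with a promoter in the table (13.5%), against 3.19% of the 10862 tested genes with a promoter and 7.01% of the other microglia-enriched genes. The 6 sites below lie, with their flanks, wholly before the start of a lower DEG, and are shown because these genes are low together with Spi1. Capitals mark the motif or its reverse complement, written on the strand of the gene.
C1qc, complement subunit, chr4:136893091-136893120, minus strand: ggacggcagacACTTCCTCattttggcaca
Cd37, leukocyte tetraspanin, chr7:45238846-45238875, minus strand: acccccccggaACTTCCTCtttctctgccg
Ptgs1, cyclooxygenase 1, chr2:36230391-36230420, plus strand: aggctggagcaGAGGAAGTtggcggtcagc
Inpp5d, lipid phosphatase SHIP1, chr1:87620281-87620310, plus strand: gtttctataatGAGGAAGTtctgtgcagct
Pycard, inflammasome adaptor, chr7:127993893-127993922, minus strand: gtccccaccccACTTCCTCcaccaacccac
Hpgds, prostaglandin D synthase, chr6:65144761-65144790, minus strand: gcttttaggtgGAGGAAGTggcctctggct
A match describes these letters and is not evidence that PU.1 bound there.

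How far transcripts had come back differed between genes. Among the 991 microglia-enriched genes with at least 1 FPKM in control, 63 were below 10% of control at 14 days, a set defined after the values were seen. At 5 day recovery they stood at a median of 9.70% of control (quartiles 5.43% and 13.6%), and the median over these genes ranged from 7.62% to 10.3% in the 5 recovery mice. Low 14 day values chose these genes, so their recovery and 14 day levels are not compared as a set. The 439 microglia-enriched genes with at least 5 FPKM in control stood at a median of 93.4% of control at recovery. Among these 439 genes, P2ry12, Siglech, Trem2 and P2ry13 had the lowest percentages, from 1.95% to 3.21% of control.

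Among the 63 genes chosen by low 14 day values, Lyz2 and Ccl12 were the only 2 above 50% of control at 5 day recovery. Lyz2, the lysozyme of macrophages and monocytes, measured 14.9, 10.1, 10.9, 12.9 and 12.3 FPKM in control, 0.316, 0.535, 1.10, 0.297 and 2.06 at 14 days and 8.79, 7.81, 9.23, 5.28 and 8.87 at 5 day recovery. It stood at 65.4% of control (log2 fold change -0.57 ± 0.21, adjusted p = 0.21), with every recovery value still below every control value, and exceeded 14 days by 2.33 ± 0.21 (adjusted p = 1.46e-05). Ccl12, a chemokine that attracts monocytes, measured 1.61, 1.22, 2.18, 0.322 and 0.98 FPKM in control, 0 in all 5 libraries at 14 days and 1.39, 2.04, 0.856, 2.31 and 1.65 at recovery. Its recovery and control values overlapped (131% of control, 0.26 ± 0.20, adjusted p = 0.506). The difference was 0.08 without control replicate 4 and 0.40 without control replicate 3, and 0.13 without recovery replicates 4 and 5. In the same set of 63 genes, C5ar1 was at 37.2%, Cd14 at 27.4%, Itgb2 at 26% and Ccl6 at 25.1% of control, all of them lower DEGs. Cd14 was uneven, with 2.19 FPKM in recovery replicate 2 and 0.124 to 0.997 in the others, and lost the call without recovery replicates 4 and 5 (adjusted p = 0.11).

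**Figure D2:**
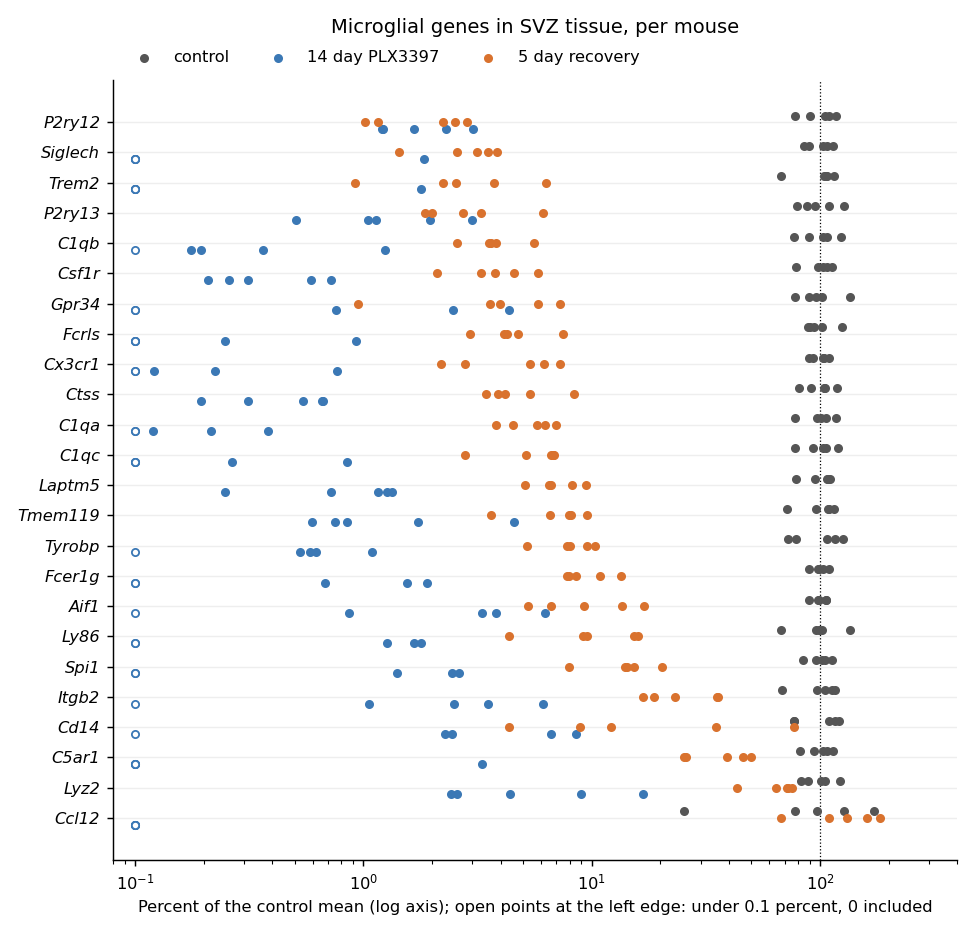
FPKM of 24 microglial genes in each mouse, as percent of the control mean, on a log axis. Genes are ordered by their mean percent at 5 day recovery (orange), with control in grey, 14 day PLX3397 in blue and open points for values under 0.1%, and the dotted line marks 100%. At 5 day recovery the values of P2ry12, Siglech, Trem2, P2ry13, Gpr34, Tmem119, Aif1 and Cd14 overlap their 14 day values, although Tmem119 was called higher. Those of the other plotted genes lie above their 14 day values, and Ccl12 also lies among the control values. The genes were picked for display, so this describes the plot only.

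In lists that microglia share with other cells, every called gene was microglia-enriched. Of 35 lysosome genes, 9 were lower, among them Ctss, Laptm5, Ctsd, Cd68 and Grn, with a list median of -0.24, or -0.15 without control replicate 1. Ctsd, a lysosomal protease that all brain cells make, measured 636, 334, 357, 416 and 394 FPKM in control and 263, 301, 236, 169 and 269 at recovery (57.9% of control, -0.77 ± 0.16, adjusted p = 0.0194). Its highest value was that of control replicate 1, and it measured -0.65 (adjusted p = 0.105) without recovery replicates 4 and 5 and -0.49 (adjusted p = 0.0211) also without control replicate 1. Of 11 purinergic genes, 5 were lower (P2ry12, P2ry13, P2ry6, Gpr34 and Entpd1). Of 17 genes of Toll-like receptors and NF-kB, 5 were lower (Cd14, Tnfrsf1b, Il6ra, Il10ra and Pycard). This last count was 3 without recovery replicates 4 and 5.

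In each of 2 lists of antigen presentation, 1 gene was called, against 1.09% of all tested genes that were lower. Of 11 class I genes tested, 10 had a negative fold change (median -0.22) and 1 was lower (9.09%). In 3 of the 11 every recovery value lay below every control value, as in 1.97% of all tested genes. The called gene, B2m, the invariant chain, measured 169, 134, 152, 132 and 118 FPKM in control and 105, 89.4, 94.3, 91.6 and 104 at recovery (68.7% of control, -0.53 ± 0.09, adjusted p = 0.00416). Of 8 class II and costimulatory genes, 1 was lower (12.5%), Cd86 at 4.73% of control. All 8 had a negative fold change (median -0.40, or -0.26 without control replicate 1). In 2 of them every recovery value lay below every control value. Of 15 TGF-beta pathway genes, 1 was lower, the receptor Tgfbr1 at 42.5%, while Tgfbr2 at 58.5% missed the threshold (-0.59, adjusted p = 0.0628). Tgfbr2 measured -0.35 (adjusted p = 0.377) without recovery replicates 4 and 5, and passed without recovery replicate 2 or 3 (adjusted p = 0.0159 and 0.0488). None of 18 interferon-stimulated genes was called in either direction (median 0.15, or 0.04 without recovery replicates 4 and 5).

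Among the receptors and ligands of the CSF family, 2 of 9 were lower, Csf1r and the granulocyte receptor Csf3r. The ligands of the CSF1 receptor were near control: Il34 had 35 ± 6.49 FPKM in control and 36.6 ± 5.46 at recovery (SD, log2 fold change 0.07 ± 0.14, adjusted p = 0.805), and Csf1 had 4.12 ± 1.29 and 3.82 ± 0.610 (-0.06 ± 0.15, adjusted p = 0.849). The sign of both changed under some alternatives, and a p that misses the threshold does not show that the groups were equal.

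Macrophages at the borders of the brain, in meninges and around vessels, carry markers of their own. Only 4 of their 8 listed markers passed the filter on low values, and none of these was called or free of overlap between the groups (median log2 fold change -0.44). Of the tested markers, Pf4 passed the threshold without control replicate 5 (-1.21, adjusted p = 0.0312), and missed it with any other single library left out. The other 4 listed markers failed the filter and were not tested, and in each every recovery value lay below every control value, as in 4.08% of the 1544 genes that failed it. Mrc1, the mannose receptor, measured 0.73, 0.576, 0.659, 0.584 and 0.533 FPKM in control and 0.105, 0.0685, 0, 0.0389 and 0 at recovery. Stab1, a scavenger receptor, measured 0.772 to 1.15 FPKM (median 0.798) in control and 0.0861 to 0.256 (median 0.155) at recovery. F13a1 measured 0.330 to 0.703 FPKM in control, 0.155 to 0.263 at recovery and at most 0.048 at 14 days. The fourth, the transcription factor gene Maf, measured 0.577 to 1.33 FPKM in control and 0.255 to 0.511 at recovery. These levels correspond to few reads. Of 7 tested genes of monocytes and bone marrow-derived cells, none was called (median 0.08, and -0.04 without recovery replicates 4 and 5), although Napsa, an aspartic protease, was higher without control replicate 1 (0.63, adjusted p = 0.0188). Ccr2 and Ly6c2, which define monocytes, were not analysed here.

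Only 9 of the 154 lower DEGs were not microglia-enriched, and 4 of them, Gpr17, 9630013A20Rik, Neu4 and Fyn, were in the lists of oligodendrocyte precursors and newly formed oligodendrocytes. Gpr17, a receptor switched on for a short time in precursors committed to differentiate, measured 4.53, 7.07, 7.36, 7.87 and 6.60 FPKM in control and 2.08, 2.57, 2.78, 0.537 and 0.561 at 5 day recovery. It was at 25.5% of control (-1.60 ± 0.25, adjusted p = 0.00101), and, with its lowest values in recovery replicates 4 and 5, still differed without them (-1.13, adjusted p = 0.00233). At 14 days it had 1.99 to 3.89 FPKM (recovery minus 14 days -0.66 ± 0.25, adjusted p = 0.239).

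The long non-coding RNA 9630013A20Rik (chromosome 14, 84458724-84476424, GRCm38), a transcript of newly formed oligodendrocytes, measured 3.36, 4.68, 4.30, 2.77 and 3.12 FPKM in control, 3.41, 2.11, 1.13, 3.36 and 1.06 at 14 days and 0.542, 1.06, 0.447, 0.251 and 0.370 at recovery. The recovery values lay below all control values, at 14.7% of control (-1.60 ± 0.22, adjusted p = 0.000223), and 4 of the 5 below all 14 day values (recovery minus 14 days -1.01 ± 0.22, adjusted p = 0.0614). Neu4, a sialidase of the lineage, measured 3.30, 3.49, 5.36, 4.55 and 4.98 FPKM in control and 1.89, 0.888, 1.3, 1.19 and 0.899 at recovery (28.5% of control, -1.26 ± 0.16, adjusted p = 0.000122). Fyn, a kinase that acts in myelination, measured 10.2, 10.2, 9.53, 9.25 and 8.99 FPKM in control and 5.89, 5.72, 5.81, 5.82 and 6.52 at recovery (61.8% of control, -0.61 ± 0.08, adjusted p = 0.000297). Neither Neu4 nor Fyn overlapped between the groups, and both had 14 day means, 1.15 and 6.70 FPKM, close to those of recovery. Snx22, a sorting nexin that is in none of the lists, was at 57.0% of control (adjusted p = 0.0121), and measured -0.55 (adjusted p = 0.105) without recovery replicates 4 and 5 and -0.62 (adjusted p = 0.0409) also without control replicate 1.

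Pdgfra, Cspg4 and Mbp were not called, and a difference between stages of the lineage was not tested. Pdgfra, the receptor of precursors, measured 5.13, 4.84, 5.03, 5.66 and 5.35 FPKM in control, 1.65, 1.99, 1.67, 2.44 and 2.78 at 14 days and 4.44, 4.29, 4.17, 4.11 and 4.19 at recovery. Recovery stood clear of 14 days (0.77 ± 0.10, adjusted p = 0.00097) and, at 81.6% of control, below every control value without passing the test (-0.24 ± 0.10, adjusted p = 0.247). Cspg4, which encodes NG2, measured 2.17, 2.34, 2.41, 1.09 and 1.12 FPKM at recovery against 2.36 to 3.18 in control (-0.51 ± 0.15, adjusted p = 0.133), with the low values in replicates 4 and 5, and was at -0.25 without them (adjusted p = 0.608). Mbp, a major myelin gene, had 947 ± 166 FPKM at recovery against 1069 ± 133 in control (SD, -0.19 ± 0.16 on the log2 scale, adjusted p = 0.546), and was at -0.31 without recovery replicates 4 and 5 and -0.11 without recovery replicate 3.

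By list, 2 of 20 tested precursor genes (Gpr17 and Neu4) and 3 of 14 genes of newly formed oligodendrocytes (Fyn, 9630013A20Rik and Frmd4a) were lower, with medians of -0.39 and -0.34, and none of 28 myelin genes was called (median -0.02). Without recovery replicates 4 and 5 the medians of the 3 lists were close, at -0.22, -0.25 and -0.20. All 14 genes of newly formed oligodendrocytes had a negative fold change, and Frmd4a, itself microglia-enriched by the ratio, lost its call without recovery replicates 4 and 5 (adjusted p = 0.306) and without any of 8 single libraries (adjusted p of 0.0613 to 0.134). Susd5 (32.5% of control, adjusted p = 0.00196) and Lad1 (23.6%, adjusted p = 0.000457) were also lower, and had no ratio to sorted microglia.

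**Figure D3:**
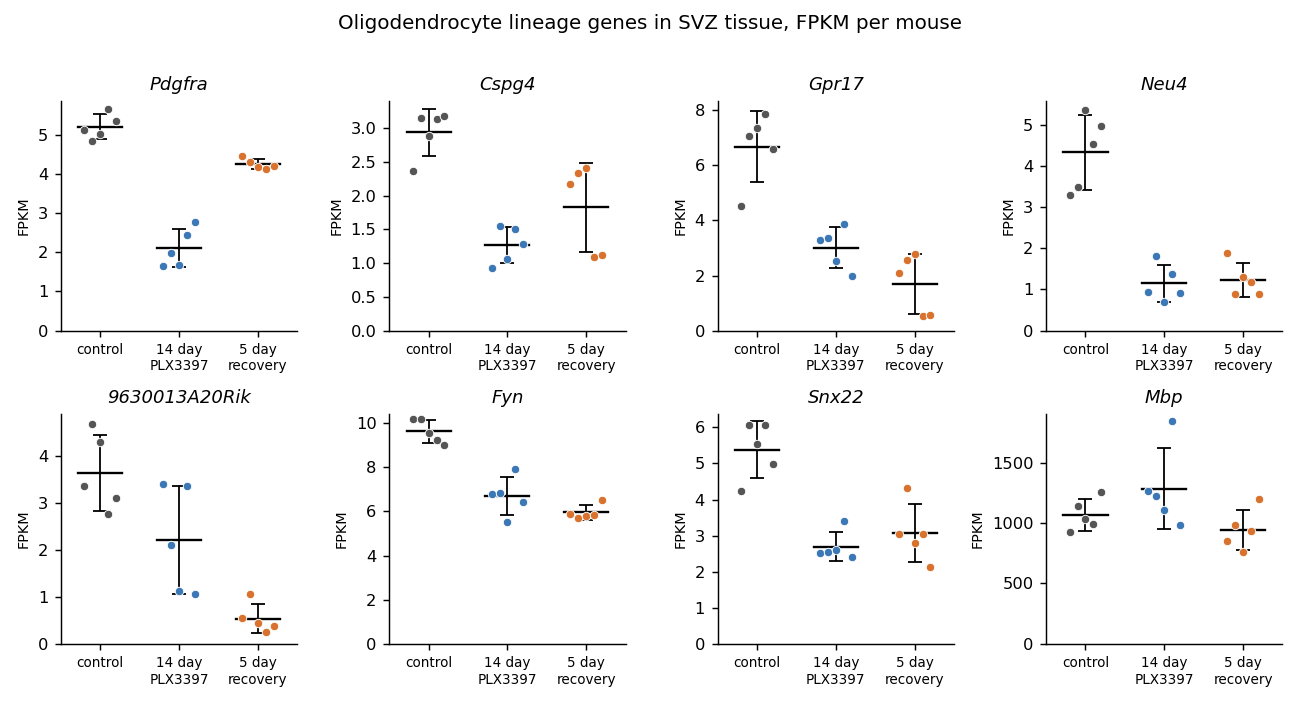
FPKM of 8 genes of the oligodendrocyte lineage in each mouse of 3 groups, control, 14 days of PLX3397 and 5 day recovery (n = 5 each). Points are mice, horizontal lines means and bars SD, and each axis starts at 0. Pdgfra at 5 day recovery lies above its 14 day values, Gpr17, Neu4, 9630013A20Rik, Fyn and Snx22 are lower than control, and Mbp overlaps between recovery and control.

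Gfap had the largest increase among the higher DEGs other than globin genes. Gfap, the intermediate filament that rises in reactive astrocytes and is also made by neural stem cells, measured 66.9, 48.2, 74.9, 64.4 and 55.9 FPKM in control, 112 to 171 at 14 days and 114, 159, 130, 205 and 232 at 5 day recovery. All recovery values lay above all control values, at 2.71 times the control mean (1.39 ± 0.18, adjusted p = 0.000131), and 0.28 ± 0.18 above 14 days (adjusted p = 0.444). The increase was 1.10 without recovery replicates 4 and 5 (adjusted p = 0.00101), which had the highest values. Of 24 tested genes of astrocyte reactivity, Gfap was the only one higher, Cd14 was lower, and the median was 0.18.

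Other astrocyte genes moved less. C4b, a complement component that reactive astrocytes make, measured 4.40, 4.05, 5.35, 4.13 and 4.27 FPKM in control, 10.2 to 15.3 at 14 days and 6.24, 11.6, 8.55, 3.51 and 4.46 at recovery (0.44 ± 0.21, adjusted p = 0.315). Recovery replicates 1, 2 and 3 lay above all control values and replicates 4 and 5 did not, and without the latter C4b was higher (0.82, adjusted p = 0.024). C4b has a near-identical copy, C4a, which was not analysed here, so its values are uncertain. Aqp4, Slc1a3 and Gja1, the water channel, glutamate transporter and gap junction gene of astrocytes, had no overlap between groups, at 119%, 121% and 137% of control, but missed the threshold (adjusted p = 0.216, 0.0633 and 0.0616). Without recovery replicates 4 and 5 their log2 fold changes were 0.25, 0.21 and 0.25 (adjusted p = 0.554, 0.271 and 0.264), whereas Slc1a3 passed without recovery replicate 2 (adjusted p = 0.0292) and Gja1 without recovery replicate 2 or 3 (0.0395 and 0.0182). They were the only 3 of the 20 genes of astrocyte identity without overlap, against 1.12% of all tested genes with all recovery values above control. None of the 20 was called, 11 had a positive and 9 a negative fold change, the median was 0.06, and the lowest was Fgfr3 at -0.95 (adjusted p = 0.212), or -0.17 without recovery replicates 4 and 5. Stat3, a driver of astrocyte reactivity, was at 127% of control with no overlap (adjusted p = 0.0557), and had an adjusted p of 0.0169 without recovery replicate 3 and 0.306 without recovery replicates 4 and 5.

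Among the other higher DEGs, Alyref2, an RNA export factor, measured 4.58, 5.50, 5.50, 6.64 and 5.45 FPKM in control and 9.34, 8.58, 8.29, 8.93 and 8.66 at recovery (0.59 ± 0.09, adjusted p = 0.000882). Anxa1, an anti-inflammatory annexin, measured 0.928, 0.627, 1.08, 1.11 and 0.979 FPKM in control and 2, 1.83, 2.8, 2.67 and 2 at recovery (0.74 ± 0.14, adjusted p = 0.0107). Sntn, a protein of cilia tips, measured 2.09, 1.06, 1.61, 1.11 and 1.27 FPKM in control and 3.45, 2.74, 2.5, 4.17 and 2.66 at recovery (0.76 ± 0.17, adjusted p = 0.0281), and was the only DEG among 20 ependymal genes. Prok2, a secreted attractant of neuroblasts, overlapped between groups at 3.57 FPKM in control and 3.45 at recovery (0.72 ± 0.16, adjusted p = 0.0245). Without recovery replicates 4 and 5, Anxa1, Sntn and Prok2 measured 0.72, 0.69 and 0.69 (adjusted p = 0.0813, 0.172 and 0.147). Sntn also missed the threshold without control replicate 2, 3, 4 or 5 or recovery replicate 1 or 4 (adjusted p of 0.0505 to 0.0892), and Prok2 without control replicate 2, 3, 4 or 5 or recovery replicate 1 or 5 (0.0502 to 0.0886).

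Rab14, Sfxn1, Swi5, Frat1 and Pak3, genes of vesicle transport, mitochondria, DNA repair, Wnt signaling and the neuronal cytoskeleton, were at 133%, 144%, 138%, 162% and 148% of control, each with all recovery values above all control values. Frat1 had 38.1, 38.2 and 38.1 FPKM in recovery replicates 1, 2 and 3 and 59.8 and 62.1 in replicates 4 and 5, against 26.8 to 31.0 in control. It missed the threshold without control replicate 1 or 5 or recovery replicate 4 or 5 (adjusted p of 0.0523 to 0.0626), as did Pak3 without control replicate 5 (0.0544) and without recovery replicates 4 and 5 (0.41, adjusted p = 0.12). Abca1, a cholesterol exporter of microglia and other cells, was lower in all recovery mice (2.62 ± 0.263 against 4.11 ± 0.456 FPKM, SD, adjusted p = 0.0101), and was the only DEG among 23 genes of cholesterol and lipid handling. Without recovery replicates 4 and 5 it missed the threshold (-0.46, adjusted p = 0.0803), and Dhcr7, an enzyme of cholesterol synthesis, was the only one called (higher by 0.29, adjusted p = 0.0366).

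Of the 7 listed erythrocyte genes, 4 were higher at 5 day recovery. Hba-a2, an alpha-globin gene, measured 15.3, 24.5, 14.8, 13.2 and 23 FPKM in control, 12.3 to 21 at 14 days and 50.2, 30.2, 63.0, 41.1 and 91.4 at recovery (3.04 times control, 1.5 ± 0.25, adjusted p = 0.00232), with no overlap. Hba-a1, Hbb-bs and Hbb-b1 were higher as well, at 3.80, 2.70 and 2.39 times control (adjusted p = 0.0402, 0.0144 and 0.0186), and Alas2, the heme synthesis enzyme of red cell precursors, was at 2.14 times (adjusted p = 0.0697) and passed without control replicate 2 or 5 or recovery replicate 2 (0.0365, 0.0414 and 0.023). Hba-a1 overlapped between groups at 43.6 FPKM in control and 41.1 at recovery. The globin genes of a pair are near-identical, so reads may be shared between them. Over the 7 genes, the summed FPKM was 272 to 402 in control and 331 to 664 at recovery. The count of 4 was 1 without recovery replicate 5, 2 without control replicate 1, 3 or 4, 2 without recovery replicates 4 and 5, and 5 at most when any other library was left out. The part of blood in the vessels in these values was not tested.

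Neutrophil genes were higher in some recovery mice. S100a8, an antimicrobial protein of neutrophils, measured 0.551, 0.558, 0.851, 1.76 and 1.07 FPKM in control and 0.948, 6.50, 9.37, 2.11 and 6.14 at recovery (1.41 ± 0.43, adjusted p = 0.158), and passed without recovery replicate 1 (1.75, adjusted p = 0.0419). Lcn2, an iron-binding protein of neutrophils and reactive astrocytes, measured 0 to 1.85 FPKM in control and 0.218, 13.7, 8.48, 0.606 and 0.297 at recovery (1.19 ± 0.58, adjusted p = 0.318), with 0.64 without recovery replicate 2 and 1.96 without replicates 4 and 5. Recovery replicates 2 and 3 were high for both genes, replicate 5 for S100a8 alone, and the groups overlapped. None of the 3 neutrophil genes tested was called, and the summed FPKM over the 4 listed was 0.906 to 4.48 in control and 2.52 to 24.1 at recovery, while Ngp, Camp, Ltf and Ly6g were not analysed here.

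**Figure D4:**
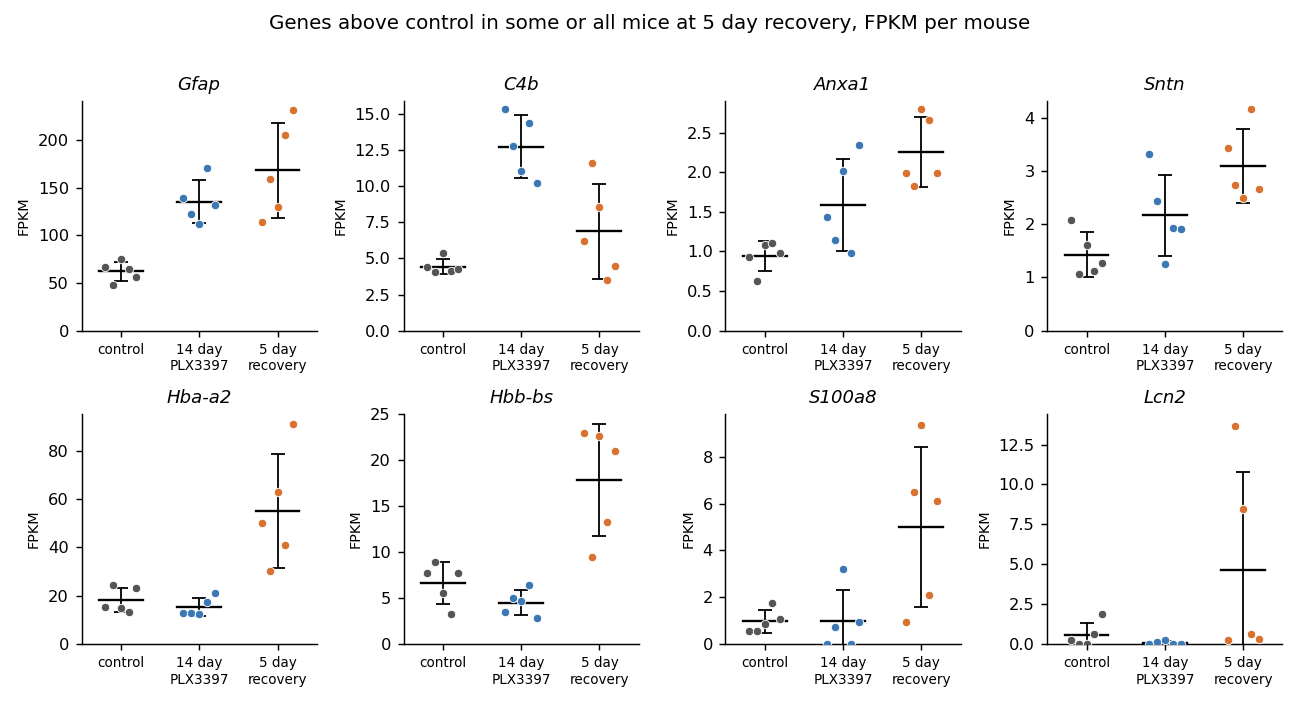
FPKM of 8 genes in each mouse of 3 groups, control, 14 days of PLX3397 and 5 day recovery (n = 5 each). Points are mice, horizontal lines means and bars SD, cut at 0, and each axis starts at 0. Gfap, Anxa1, Sntn, Hba-a2 and Hbb-bs lie above all control values at recovery, whereas C4b, S100a8 and Lcn2 are raised in some mice only.

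No DEG was found among the tested genes of neural stem cells and progenitors (23 genes, median -0.11), neuroblasts (25, 0.03), proliferation (28, -0.03), endothelial cells (22, -0.04), mural cells (11, -0.03), striatal neurons (20, -0.13), immediate early genes (18, -0.30) or heat shock and the unfolded protein response (15, 0.23). Without control replicate 1, recovery replicates 4 and 5 or all 3, these medians lay between -0.41 and 0.28. Neuroblast and ependymal genes, which mark the labelled tissue, were present, with summed FPKM of 804 to 1032 and 138 to 375 in control. The choroid plexus list had a median of -0.88 with no DEG (10 genes), and 0.09 without control replicate 1 and recovery replicates 4 and 5. Ttr, the choroid plexus transporter of thyroid hormone, had 20946 FPKM in control replicate 1 and 13.3 to 115 in the other control libraries.

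**Figure D5:**
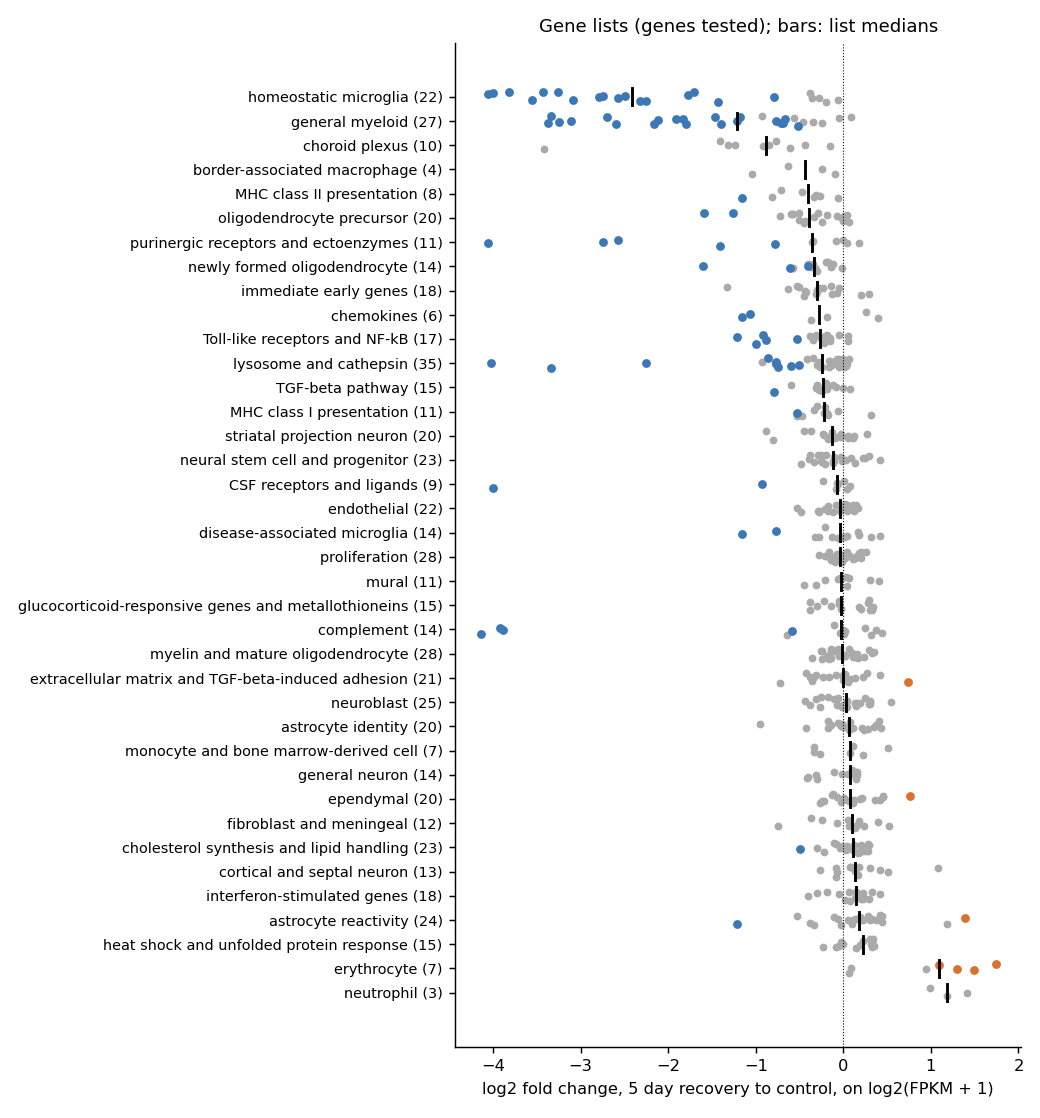
Log2 fold change of 5 day recovery to control for each tested gene of the lists with at least 3 tested genes (number in brackets). Blue points are lower and orange points higher DEGs, grey points are not called, black bars are list medians and the vertical spread of points within a list carries no value. Homeostatic microglia and general myeloid genes lie far below 0, with medians of -2.41 and -1.21, the erythrocyte list lies above 0, and most lists of other cells lie around 0.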

How the data were processed

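SVZ RNA of C57BL/6 mice was sequenced. The methods give Smart-seq2 cDNA, Nextera libraries and a NextSeq500, whereas the labels describe sequencing by a commercial provider and other brain regions. The submitters' processing notes name STAR, featureCounts, edgeR, limma and mm10. The authors deposited FPKM values (reads scaled to gene length and library total) for 15695 genes, and gene counts were not used here. Of the symbols, 25 that a spreadsheet had turned into dates were restored through their Entrez IDs. Depth was recovered from low values, of which 86.6% of 781 genes were whole multiples of 1 read within 0.03.

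The 14151 genes that reached 1 FPKM in 3 or more of the 15 SVZ libraries entered a limma fit (limma 3.58.1, R 4.3.3). Values were transformed as log2(FPKM + 1), and the fit held all 3 SVZ groups, a mean trend in eBayes, 2-sided tests and Benjamini-Hochberg adjustment over all tested genes. All adjusted p-values and fold changes ± SE come from this fit, on a scale that understates changes of low genes. Percent of control is the ratio of mean FPKM. The methods give n as the number of mice. In data simulated for this comparison over 14151 genes, 181 of 200 genes changed by 1 log2 unit were called, with 9 unchanged genes called. The changed genes were drawn only from genes of higher expression, and the noise was normal and independent between libraries. These rates therefore do not carry over to low genes or to data with libraries that stand apart. Sorted control microglia (n = 3) come from a separately normalized table, so their ratio to tissue, with 0.1 added to each mean, only classes genes. Python 3.11.15, numpy 2.4.6, pandas 2.3.3 and matplotlib 3.10.9 were used for tables and plots. Coordinates and promoters are from RefSeq GRCm38.p6, the assembly of mm10.

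The groups and the 39 gene lists were chosen with earlier results of these data known. Genes were named from these lists, from the 20 DEGs with the largest fall and the 20 with the largest rise, from all higher DEGs, from the 20 largest falls outside microglia-enriched genes, and from the 10 microglia-enriched genes with the highest and the 10 with the lowest percent of control among those of at least 5 FPKM in control. Alternatives changed the samples in the fit, the block by replicate number, the pseudocount, the filter, the kinds of genes, the scaling, the eBayes options, a fold limit, the enrichment ratio and each replicate in turn. Leaving out recovery replicates 4 and 5, also with control replicate 1, was chosen after seeing the data. Some genes are not reported here.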

Additional observations from a re-analysis of the deposited data

Results flagged for a closer look

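Dixon's criterion at 95%, where chance gives about 5 in 100, was applied to a set of genes that held many of those named. A single library lay far from the other 4 of its group in 9 of 174 groups of values. In control these were the lowest Trem2 value of 15.5 FPKM, the highest Irf8 value of 4.46, the highest Ctsd value of 636, the highest C4b value of 5.35, the highest Csf1 value of 6.37 and the highest Ttr value of 20946. At 5 day recovery they were the highest Fyn value of 6.52 FPKM, the highest Abca1 value of 3.09 and the highest Ttr value of 23.6.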

How the results depend on the processing

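A set of 59 called genes was followed under the alternatives. It held many of the DEGs named above but not all of them. Of the 59, 35 had a value under all 22 alternatives, and 19 of these passed the threshold in each. The other 24 were not tested under the stricter filter, and 22 of them passed under the other 21 alternatives. None of the 59 changed direction. Of 24 genes that were not called and were followed in the same way, 11 passed under at least 1 alternative. The number of DEGs was 68 (53 lower, 15 higher) when FPKM of at least 1 was required in at least 10 libraries, and 79 (74 lower, 5 higher) with a log2 fold limit of 1. Higher DEGs numbered 11 with only control and recovery in the fit, 10 without recovery replicates 4 and 5, and 6 (of 139 DEGs) also without control replicate 1. Leaving out each library in turn gave 153 to 330 DEGs, 141 to 231 lower and 12 to 99 higher. The higher count was 17 without control replicate 1, 17 without control replicate 2, 13 without control replicate 3, 42 without recovery replicate 2, 99 without recovery replicate 3 and 12 without recovery replicate 5. With a ratio of 2 or 8 for enrichment, 4 or 1 of the higher DEGs were microglia-enriched. The cause of these shifts was not tested. Direction changed for Il34 without control replicate 1 (log2 fold change -0.019) and without recovery replicate 3 (-0.0085), and for Csf1 with quantile normalization (0.031), without control replicate 5 (0.075), without recovery replicate 4 (0.014) and without recovery replicates 4 and 5 (0.033). Leaving out libraries gave at most 0.14 for Il34 and at least -0.12 for Csf1. With a block by replicate number, 201 genes were called, 163 lower and 38 higher. After group means were subtracted, control and recovery libraries with the same number correlated at -0.05, -0.15, 0.05, -0.03 and 0.11. The sample titles give a replicate number and no pairing, so the block is not read as a paired design. Values under about 0.1 FPKM rest on 1 or a few reads.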
